A study of Homo sapiens with 4 samples.

Results

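The 10 genes described here flank the multidrug transporter gene ABCB1 on the long arm of human chromosome 7. They are PTPN12, APTR, RSBN1L, TMEM60, PHTF2, GNAI1, SEMA3D, DBF4, SRI and STEAP1. They were picked from the 41 measured genes that lie within 10 Mb of ABCB1 but outside the 12 measured genes from ELAPOR2 to SLC25A40 that surround it, in a table of 15201 genes. The choice was made with the difference between resistant and wild-type cells known, so that difference is given for them as a description, without a test.

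Expression was measured by mRNA sequencing in 2 libraries of carfilzomib-resistant ARP-1 cells (CfzR) and 2 libraries of wild-type ARP-1 cells (WT). ARP-1 is an established line of human multiple myeloma, a cancer of plasma cells. Carfilzomib blocks the proteasome, the protease complex on which antibody-secreting cells depend heavily. The labels give no dose or length of selection, do not say whether the resistant cells are a clone, and do not say whether the drug was present at harvest. They do not state that replicates came from separate cultures, so the spread may be technical. Levels are in FPKM, which counts fragments relative to transcript length and library size, and the depth behind them is unknown. In such bulk samples, fewer cells with a transcript and less of it per cell cannot be told apart. All 10 plasma cell markers had values, with summed levels of 20380 and 23840 FPKM in the CfzR libraries, against 19740 and 15830 FPKM in the WT libraries. The sums were mostly IGKC, at 13684 and 17706 FPKM in CfzR, against 13828 and 9844 FPKM in WT, with overlapping groups. Without overlap, JCHAIN, SDC1 and PRDM1 were higher in CfzR and TNFRSF17 and XBP1 were lower. Over all tested genes 44.7% had groups that did not overlap. Of the 10 markers 0 were called in either direction (limma, adjusted p under 0.05), so no marker difference is read from these values. The groups overlapped for the remaining markers. Of 20 markers of other blood, stromal and epithelial cells only KRT8 and KRT18 had values, and the other 18 were not analysed here. KRT8 stood at 1.67 and 3.28 FPKM in CfzR, against 4.25 and 5.39 FPKM in WT, and KRT18 at 0.424 and 0.425 FPKM in CfzR, against 2.02 and 1.39 FPKM in WT. Both were without overlap at low levels, and their part in the results was not tested. The 2 CfzR libraries differed from each other in a way that followed transcript length (Spearman 0.466 across genes, against 0.146 for the WT libraries). The difference also followed GC content (Spearman -0.350, against 0.079 for the WT libraries). Across tested genes CfzR replicate 2 correlated more with WT replicates 1 and 2 (Pearson 0.975 and 0.973) than with CfzR replicate 1 (0.968). Values are therefore given for each library.

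ABCB1 encodes P-glycoprotein, a pump that exports many drugs, carfilzomib among them. In cell lines selected with exported drugs, extra copies of the DNA around ABCB1 and rearrangements there are known routes to high pump levels, and neighbouring genes can be carried along. SRI, which encodes the calcium-binding protein sorcin, got its name from such cells. DNA was not measured here, and the genes were compared by their RNA alone.

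Several of these genes start back to back with a neighbour on the opposite strand, so that both promoters lie in the same stretch of DNA. The RefSeq windows (GRCh38.p14), from 250 bases before to 50 bases after a gene's start, are shown for the plus-strand gene of 3 such pairs, because the pairs behaved differently in the resistant cells. All 10 genes had a RefSeq window. Capitals mark the bases that also belong to the window of the partner. The DBF4 window, chr7:87876243-87876542, shares 232 bases with that of SLC25A40, the last gene of the block, and the starts are 133 bases apart. The RSBN1L window, chr7:77696209-77696508, shares 293 bases with that of APTR. The PHTF2 window, chr7:77798523-77798822, shares 162 bases with that of TMEM60.
DBF4: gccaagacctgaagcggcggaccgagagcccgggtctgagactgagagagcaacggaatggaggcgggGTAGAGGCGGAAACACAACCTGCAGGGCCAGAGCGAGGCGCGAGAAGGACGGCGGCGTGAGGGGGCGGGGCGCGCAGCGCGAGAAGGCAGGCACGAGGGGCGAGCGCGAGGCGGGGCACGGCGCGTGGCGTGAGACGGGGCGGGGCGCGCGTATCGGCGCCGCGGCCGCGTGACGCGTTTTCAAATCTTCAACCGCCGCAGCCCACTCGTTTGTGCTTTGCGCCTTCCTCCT
RSBN1L: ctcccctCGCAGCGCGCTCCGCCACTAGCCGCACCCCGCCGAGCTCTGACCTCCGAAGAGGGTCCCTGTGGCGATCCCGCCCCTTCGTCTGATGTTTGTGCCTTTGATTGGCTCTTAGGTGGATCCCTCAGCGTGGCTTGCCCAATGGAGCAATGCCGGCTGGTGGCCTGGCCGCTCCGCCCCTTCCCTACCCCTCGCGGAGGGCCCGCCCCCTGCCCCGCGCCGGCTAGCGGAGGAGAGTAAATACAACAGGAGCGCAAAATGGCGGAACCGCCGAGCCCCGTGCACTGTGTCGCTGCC
PHTF2: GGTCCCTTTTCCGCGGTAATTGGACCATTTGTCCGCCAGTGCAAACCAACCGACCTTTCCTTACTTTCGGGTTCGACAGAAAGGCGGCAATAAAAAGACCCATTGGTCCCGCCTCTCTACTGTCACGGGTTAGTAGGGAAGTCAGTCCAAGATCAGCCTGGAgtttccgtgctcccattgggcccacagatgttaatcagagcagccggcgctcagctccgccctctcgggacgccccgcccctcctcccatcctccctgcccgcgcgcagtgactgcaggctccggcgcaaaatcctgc

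The first listed windows of GNAI1 (chr7:80134581-80134880, plus strand, inside the gene's longer GENCODE span) and SEMA3D (chr7:85187007-85187306, minus strand) are shown because these 2 genes had the largest differences among the 10. Capitals mark CG dinucleotides, the sites of DNA methylation in vertebrates. GNAI1 held 42 of them, a number reached by 5.85% of the 35116 RefSeq windows. SEMA3D held 14, equal to the median window and reached by 50.3% of windows. The letters GGGCGG (on either strand, in 45.0% of all windows) were in the GNAI1 window and not in that of SEMA3D. The letters CCAAT (either strand, 34.6% of windows) were in neither.
GNAI1: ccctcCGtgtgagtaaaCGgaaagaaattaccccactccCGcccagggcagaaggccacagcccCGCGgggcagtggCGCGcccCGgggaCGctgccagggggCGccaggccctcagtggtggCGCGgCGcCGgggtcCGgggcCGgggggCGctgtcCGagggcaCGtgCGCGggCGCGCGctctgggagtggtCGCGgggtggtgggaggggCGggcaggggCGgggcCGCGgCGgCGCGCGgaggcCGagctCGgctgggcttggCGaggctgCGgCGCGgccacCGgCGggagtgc
SEMA3D: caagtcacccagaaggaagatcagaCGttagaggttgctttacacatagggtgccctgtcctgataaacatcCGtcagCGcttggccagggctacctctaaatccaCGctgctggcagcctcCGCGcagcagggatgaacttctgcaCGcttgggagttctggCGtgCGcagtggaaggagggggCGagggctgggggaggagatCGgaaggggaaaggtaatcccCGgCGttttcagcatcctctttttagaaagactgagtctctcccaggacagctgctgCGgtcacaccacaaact

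The comparison asks where, on either side of ABCB1, the higher expression of the resistant cells ends. Over the 10 genes, 2 that were nearly silent in wild-type cells, GNAI1 and SEMA3D, stood far higher in CfzR. DBF4 and STEAP1 were about 2.18-fold and 2.02-fold higher, the 5 genes farthest towards the centromere were 1.27-fold to 1.61-fold higher, and SRI, close to the block, had the same level in both groups. The order of the differences did not follow distance. GNAI1 lies 7.28 Mb from ABCB1 and had the largest difference, while SRI lies 0.492 Mb away and had the smallest.

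GNAI1 (ENSG00000127955, chr7:79768028-80226181, plus strand in GENCODE 29, GRCh38) encodes the alpha subunit of an inhibitory G protein, which lowers cyclic AMP. It stood at 7.90 and 5.73 FPKM in CfzR replicates 1 and 2, against 0.341 and 0.402 FPKM in WT replicates 1 and 2. The groups lay far apart, with the lower CfzR library above both WT libraries. Mean levels were 6.81 ± 1.53 FPKM in CfzR and 0.372 ± 0.0431 FPKM in WT (SD, n = 2 each), an 18.3-fold ratio and a log2 fold change of 2.50 (SE 0.25) on the log2(FPKM + 1) scale, which understates the change of low genes.

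SEMA3D (ENSG00000153993, chr7:84995553-85186855, minus strand) encodes a secreted semaphorin that guides axons and endothelial cells through neuropilin and plexin receptors. It stood at 7.62 and 4.17 FPKM in the CfzR libraries, against 0.733 and 0.718 FPKM in the WT libraries. The groups did not overlap, and CfzR replicate 1 was well above CfzR replicate 2. The ratio of means was 8.13 and the log2 fold change 1.95 (SE 0.30). Both genes had a WT mean under 1 FPKM and entered the fit, which required a mean of 1 FPKM over the 4 libraries, only through their CfzR values.

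DBF4 (ENSG00000006634, chr7:87876216-87909541, plus strand) encodes the activating subunit of the CDC7 kinase, which fires replication origins. It stood at 63.5 and 52.8 FPKM in the CfzR libraries, against 26.4 and 26.8 FPKM in the WT libraries. The groups were clearly apart, and the log2 fold change was 1.09 (SE 0.20). In GENCODE 29 its span overlaps that of SLC25A40 by 142 bases on the other strand. The use of strand in counting is not given in the sources used here, so reads from the overlap cannot be told apart.

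SRI (ENSG00000075142, chr7:88205118-88226993, minus strand), the sorcin gene, binds calcium and regulates calcium release channels of the endoplasmic reticulum. It stood at 114 and 125 FPKM in the CfzR libraries, against 111 and 126 FPKM in the WT libraries. The CfzR values fell inside the range of the WT values. The log2 fold change was 0.01 with an SE of 0.21. The gene next to it on the side of the block, ADAM22, stood at 1.70 and 1.25 FPKM in CfzR, against 0.496 and 0.457 FPKM in WT, and was too low for the fit.

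STEAP1 (ENSG00000164647, chr7:90154375-90164829, plus strand) encodes a cell-surface protein of the metalloreductase family that is studied as an antibody target in prostate cancer. It stood at 22.8 and 21.96 FPKM in the CfzR libraries, against 10.3 and 11.9 FPKM in the WT libraries. The libraries of each group lay close together and the groups did not overlap. The log2 fold change was 0.95 (SE 0.19).

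**Figure D1:**
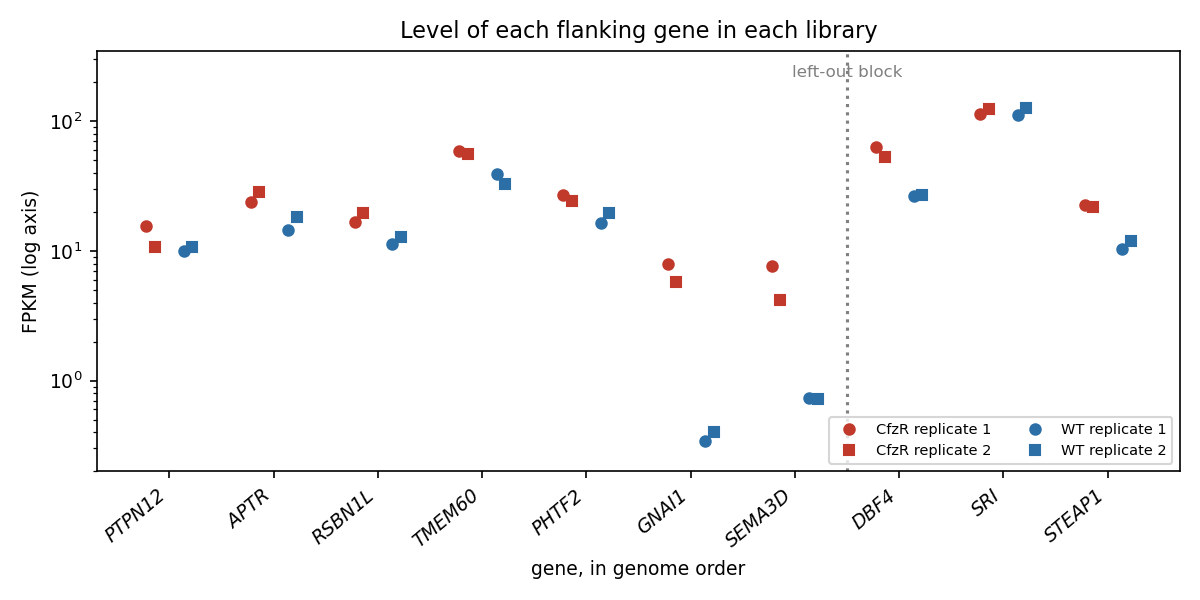
FPKM on a log axis of each of the 10 genes in genome order, with CfzR libraries (red) left of WT libraries (blue), circles for replicate 1 and squares for replicate 2. GNAI1 and SEMA3D lie below 1 FPKM in WT and between 4.17 and 7.90 FPKM in CfzR, while the 4 SRI values lie between 111 and 126 FPKM.

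The other 5 genes lie together, within 420229 bases, 9.55 to 9.86 Mb from ABCB1 on the side of the centromere. TMEM60 (ENSG00000135211), a small membrane protein of unknown function, stood at 58.7 and 55.8 FPKM in the CfzR libraries, against 39.5 and 32.7 FPKM in the WT libraries. APTR (ENSG00000214293), a long noncoding RNA reported to repress the cell cycle inhibitor CDKN1A, stood at 24.0 and 28.4 FPKM in CfzR, against 14.4 and 18.2 FPKM in WT. Their log2 fold changes were 0.66 (SE 0.20) and 0.65 (SE 0.21).

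RSBN1L (ENSG00000187257), a nuclear protein related to RSBN1, stood at 16.8 and 19.7 FPKM in the CfzR libraries, against 11.3 and 12.9 FPKM in the WT libraries. PHTF2 (ENSG00000006576), a membrane protein first described as a putative transcription factor, stood at 27.2 and 24.2 FPKM in CfzR, against 16.5 and 19.7 FPKM in WT. For each of these 4 genes the CfzR libraries were above the WT libraries. Once trends with length and GC content were removed, the log2 fold change was 0.38 in place of 0.55 for RSBN1L and 0.27 in place of 0.48 for PHTF2, whose longest transcripts have 6422 and 5198 bases.

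PTPN12 (ENSG00000127947, chr7:77537275-77640071, plus strand) encodes a tyrosine phosphatase that acts on focal adhesion proteins. It stood at 15.5 and 10.7 FPKM in the CfzR libraries, against 9.94 and 10.8 FPKM in the WT libraries. The groups overlapped. The log2 fold change of 0.29 (SE 0.23) rested on CfzR replicate 1, and it was 0.05 without that library.

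In the CfzR libraries SRI had the highest mean level of the 10, followed by DBF4 (58.1 ± 7.55 FPKM) and TMEM60 (57.3 ± 2.07 FPKM), which did not differ beyond their spread. APTR and PHTF2 came next at 26.2 ± 3.16 and 25.7 ± 2.06 FPKM, also within their spread, and then STEAP1 (22.4 ± 0.593), RSBN1L (18.2 ± 2.06) and PTPN12 (13.1 ± 3.35). GNAI1 and SEMA3D (5.90 ± 2.44 FPKM) were lowest and not separated from each other. In the WT libraries SRI (119 ± 10.4 FPKM) was likewise highest and GNAI1 lowest, with SEMA3D next to it at 0.726 ± 0.010 FPKM (SD, n = 2 for each value). By WT level GNAI1 and SEMA3D were in the lowest 1.11% of tested genes, and the other 8 were between percentiles 50.3 and 91.9.

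By the fit across all 13411 tested genes (limma, adjusted p under 0.05), 1 of the 10 genes, GNAI1, was called higher, where 0.246% of all tested genes were called in that direction. None of the 10 was called lower (0.104% of all tested genes). The count was 0 when either CfzR library was left out. In the CfzR libraries 8 of the 10 were above both WT libraries, where 22.1% of all tested genes were and 44.7% had groups that did not overlap in either direction. A log2 fold change of at least 1 was found for 3 of the 10, GNAI1, SEMA3D and DBF4, against 1.69% of all tested genes. All 10 were above 0, against 47.1% of all tested genes. Because the choice used this contrast, nothing is read from these counts. With 2 libraries a group, an exact two-sided permutation test cannot go below p = 0.333.

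In genome order, the values towards the centromere gave no clear point at which the large differences stopped. On the other side the log2 fold change was 4.56 for SLC25A40, the last gene of the block, and 1.09 for DBF4 next to it. Beyond SLC25A40, only DBF4 and the low gene CDK6-AS1 (1.19) reached 1 among tested genes within 10 Mb. That edge of the block was drawn from this same contrast. Towards the centromere, the last gene of the block on that side, ELAPOR2, stood at 19.98 and 15.4 FPKM in CfzR, against 5.86 and 5.87 FPKM in WT (log2 fold change 1.43, SE 0.21). The next measured gene on that side, SEMA3D, 1.69 Mb further, had a larger fold than ELAPOR2. The 2 measured genes beside SEMA3D had lower values in CfzR. HNRNPA1P8, a processed pseudogene whose reads may come from its parent gene, stood at 3.86 and 4.37 FPKM in CfzR, against 4.41 and 6.70 FPKM in WT. Its log2 fold change was -0.34, where the median over all 1200 tested pseudogenes was -0.28, with 26.5% above 0. ENSG00000280325 stood at 2.49 and 6.96 FPKM in CfzR, against 9.98 and 10.5 FPKM in WT (log2 fold change -1.09). No other measured gene lay between GNAI1 and SEMA3D, and the lowest mean of any gene in the table was 0.50 FPKM, so silent genes of the interval were not analysed here.

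On the far side the last gene of the block was SLC25A40, a mitochondrial carrier. It stood at 256 and 143 FPKM in CfzR, against 7.37 and 6.99 FPKM in WT, a 27.8-fold ratio. DBF4, whose start lies next to its own, had a 2.18-fold ratio. The ratio was 3.09 for ADAM22, the next gene, at levels under 2 FPKM in all 4 libraries, and 1.01 for SRI, 0.329 Mb beyond SLC25A40, so the ratios did not fall step by step. STEAP1, 2.28 Mb beyond SLC25A40, was again 2.02-fold higher in CfzR. GTPBP10, the next measured gene, stood at 9.09 and 7.58 FPKM in CfzR, against 6.90 and 8.50 FPKM in WT, with overlapping groups.

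**Figure D2:**
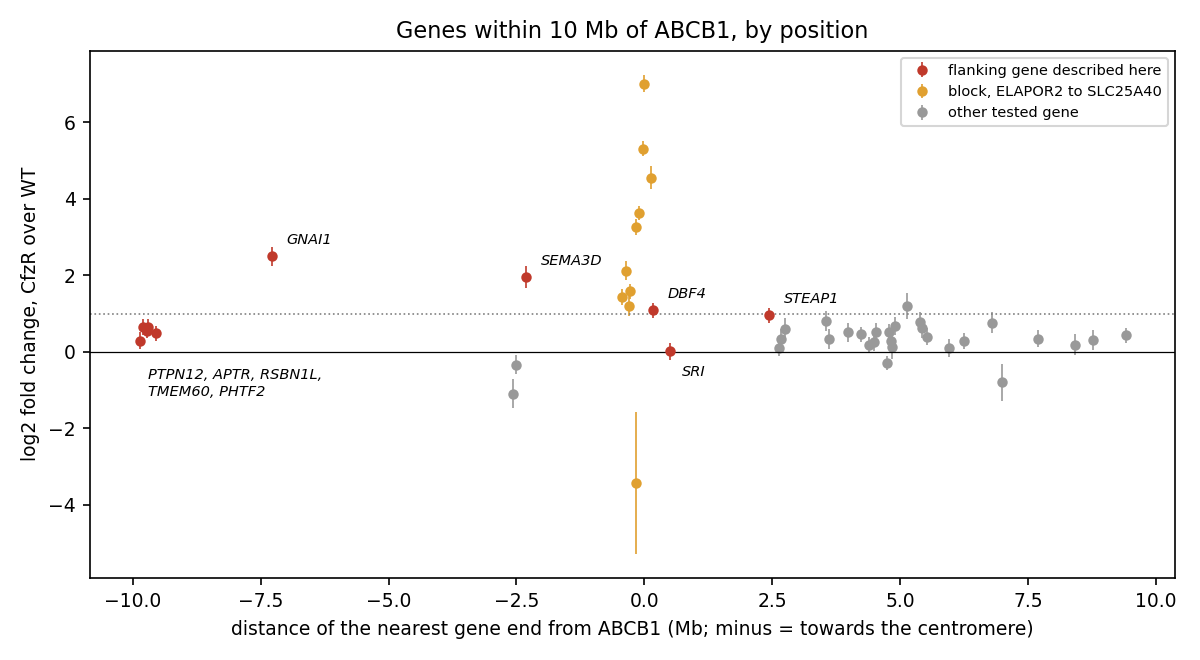
Log2 fold change of CfzR over WT, with its SE, for tested genes within 10 Mb of ABCB1 by distance. The 10 genes described here are red, the tested genes from ELAPOR2 to SLC25A40 are yellow and the remaining genes are grey. The dotted line marks a log2 fold change of 1, and the point at -3.43 is ENSG00000273623, which had a value above 0 in 1 library only. SRI sits at 0.01 right beside the block, and GNAI1 at 2.50 on the side of the centromere.

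The pairs that start back to back show the edge of the block on the smallest scale. The ratio of APTR to RSBN1L, in FPKM, was 1.43 and 1.44 in the CfzR libraries and 1.28 and 1.41 in the WT libraries. The ratio of TMEM60 to PHTF2 was 2.16 and 2.30 in CfzR and 2.39 and 1.66 in WT. For these pairs the partners kept about the same balance, with CfzR values inside or just above the WT range. The ratio of SLC25A40 to DBF4 was 4.03 and 2.71 in CfzR, against 0.279 and 0.261 in WT. The log2 fold changes of this pair differed by 3.46. Among 1389 pairs of tested genes in the genome that start within 1000 bases of each other on opposite strands, the median difference was 0.25 and the 95th percentile was 0.83. The edge of the block was drawn between SLC25A40 and DBF4 from this same contrast, so the large difference of that pair restates how the block was set and supports nothing further.

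**Figure D3:**
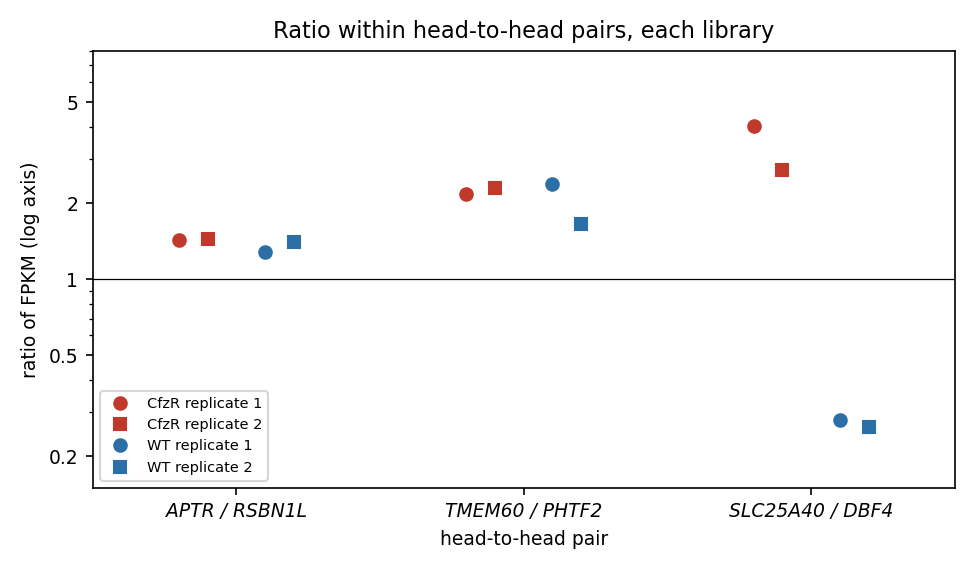
Ratio of the FPKM of the minus-strand gene to that of the plus-strand gene, on a log axis, for 3 back-to-back pairs in each CfzR library (red) and each WT library (blue). The ratio of SLC25A40 to DBF4 is above 1 in CfzR (4.03 and 2.71) and below 1 in WT (0.279 and 0.261), while the other pairs lie between 1.28 and 2.39 in all 4 libraries.

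Beyond STEAP1, the 27 tested genes from GTPBP10 to SDHAF3 showed small differences of mostly the same sign. Of these 25 had log2 fold changes above 0, with a median of 0.35 against -0.02 for all tested genes. CDK6, a cell cycle kinase, stood at 33.9 and 22.7 FPKM in CfzR, against 16.8 and 17.2 FPKM in WT. SAMD9, an antiviral factor, stood at 25.0 and 15.9 FPKM in CfzR, against 11.1 and 11.2 FPKM in WT. CDK6-AS1, an antisense transcript that may share reads with CDK6, was the only gene among the 27 with a log2 fold change of at least 1 (1.19). It stood at 1.62 and 2.41 FPKM in CfzR, against 0.718 and 0 FPKM in WT. With a WT mean of 0.359 FPKM, it entered the fit only through its CfzR values. The median for the 27 genes was 0.48 in CfzR replicate 1 and 0.30 in CfzR replicate 2, each relative to the WT mean, and it was 0.30, with 23 genes above 0, after the length and GC correction.

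At the 10 Mb limit itself the values did not change abruptly towards the centromere. GSAP, just outside the limit, stood at 18.7 and 17.3 FPKM in CfzR, against 14.2 and 13.9 FPKM in WT, a log2 fold change of 0.33, next to 0.29 for PTPN12 just inside it. On the other side SDHAF3, just inside, had a log2 fold change of 0.43. ENSG00000284707, just outside, had -0.13, at 2.29 and 2.36 FPKM in CfzR, against 1.90 and 3.59 FPKM in WT. ASNS, which lies within its span, had 0.56, at 139 and 157 FPKM in CfzR, against 97.2 and 102 FPKM in WT. The next tested gene, the processed pseudogene RPS3AP29, had -0.58. The genes just beyond the limit did not share a sign, so no edge is read from them.

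Windows of 10 Mb along chromosome 7, drawn after these values were seen and leaving out the block, placed the 10 genes in a longer stretch. Of 77 tested genes 10 to 30 Mb from ABCB1 towards the centromere, 66 were above 0, with a median log2 fold change of 0.52 (0.39 in CfzR replicate 1 and 0.56 in CfzR replicate 2, relative to the WT mean). The 5 genes from PTPN12 to PHTF2, had a median of 0.55. With the length and GC correction the medians were 0.65 for the 77 genes and 0.38 for the 5. The next window, 30 to 40 Mb away, held 16 genes with a median of -0.10, 5 of them above 0. No tested gene lay between -31.397 and -23.361 Mb from ABCB1. The centromere was not placed among these windows, so the 30 to 40 Mb window may lie across it, on the short arm. No edge within the long arm is therefore read from that window. On the other side of ABCB1 the median was 0.37 for the 30 genes within 10 Mb, which include DBF4, SRI and STEAP1. It was 0.01 for the 117 genes 10 to 20 Mb away. For the 22 genes 20 to 30 Mb away it was 0.23, with 15 above 0 and 3 at 1 or more, and it was 0.044 after the length and GC correction. In that window the median was 0.30 in CfzR replicate 1 and 0.08 in CfzR replicate 2, relative to the WT mean.

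Across the 116 tested genes from 30 Mb below to 10 Mb above ABCB1, 101 were above 0 and the median was 0.50, or 0.49 after the length and GC correction. The median difference between WT replicate 1 and WT replicate 2 for these genes was -0.04. The 116 include the 10 genes described here, which were chosen on this contrast and were all above 0, so the median of 0.50 is not independent of them. Among 229 windows of 10 Mb on the other chromosomes with at least 20 tested genes, medians ran from -0.49 to 0.38, with the 5th and 95th percentiles at -0.26 and 0.22. Of those windows 1 had a median of at least 0.35. The limits of the stretch on chromosome 7 were set after its values were seen, and it is longer than those windows. Nothing is therefore read from its place among them. More than 30 Mb above ABCB1, towards the end of the long arm, the 169 tested genes had a median of -0.26, with 40 above 0. Of the 10 genes, GNAI1, SEMA3D, DBF4 and STEAP1 lay above 0.50 by more than their own SE and SRI lay below it by more than its SE. TMEM60, APTR, RSBN1L, PHTF2 and PTPN12 lay within 1 SE of it. These are the values on which the genes were chosen, and the median includes them, so this sorting is a description and supports nothing further.

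**Figure D4:**
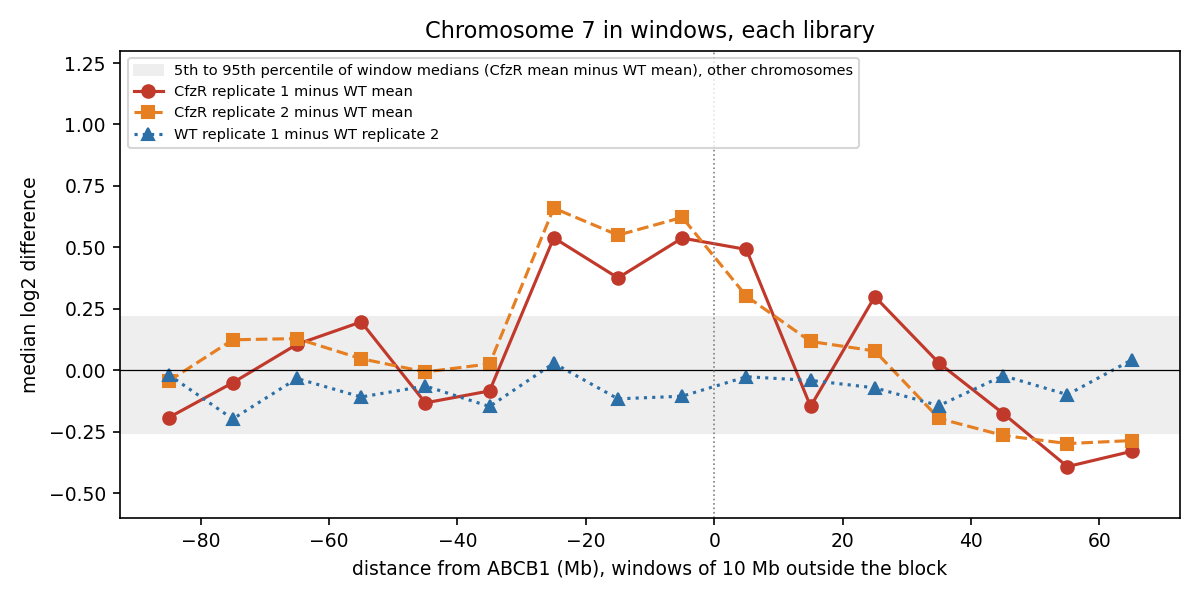
Median log2 difference of tested genes in windows of 10 Mb along chromosome 7, outside the block, for each CfzR library minus the WT mean and for WT replicate 1 minus WT replicate 2. The grey band spans the 5th to 95th percentile of window medians on other chromosomes (-0.26 to 0.22, from the mean of the CfzR libraries). Both CfzR libraries lie above the band from 30 Mb below to 10 Mb above ABCB1, and the WT difference stays within it. The windows on either side of ABCB1 include the 10 genes described here, which were chosen on this contrast. The limits of that stretch were set after its values were seen.

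Relatives of the 10 genes elsewhere in the genome, taken from lists written with earlier results of these data known, gave other values. Over all tested genes 11.1% had an unadjusted p under 0.05 in limma. The lists hold the 10 genes themselves, which were chosen on this contrast, so a count that rests on them says nothing about a family. Among G protein subunits 17 genes were tested, with a median of 0.16. By limma 1 was called higher, GNAI1, which was chosen on this contrast and passed the filter only through CfzR, and 0 were called lower. The 3 with an unadjusted p under 0.05 were GNAI1, GNAL and GNG12. GNAL stood at 1.79 and 1.68 FPKM in CfzR, against 4.76 and 4.18 FPKM in WT, and GNG12 at 11.4 and 7.98 FPKM in CfzR, against 5.64 and 5.48 FPKM in WT. The closest relatives of GNAI1, GNAI2, at 191 and 205 FPKM in CfzR, against 233 and 191 FPKM in WT, and GNAI3, at 5.10 and 3.95 FPKM, against 3.71 and 4.09 FPKM in WT, had overlapping groups. Among class 3 semaphorins, neuropilins and plexins 6 genes were tested and limma called 0 (1 at an unadjusted p under 0.05, SEMA3D itself), with a median of -0.30.

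The 27 genes of replication origin firing, the process that DBF4 controls, had a median log2 fold change of 0.09. In limma 0 were called and 1, DBF4, had an unadjusted p under 0.05. Its kinase partner CDC7 stood at 8.19 and 6.41 FPKM in CfzR, against 5.39 and 5.32 FPKM in WT, and its relative DBF4B at 12.2 and 9.01 FPKM, against 10.02 and 7.69 FPKM in WT.

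Of the STEAP metalloreductases 3 were tested, with 0 called by limma and 2 at an unadjusted p under 0.05. STEAP3, an iron reductase of the endosome, stood at 5.74 and 4.002 FPKM in CfzR, against 9.73 and 9.12 FPKM in WT, opposite in sign to STEAP1. STEAP1B stood at 12.1 and 12.7 FPKM in CfzR, against 13.99 and 18.4 FPKM in WT, and as a near copy of STEAP1 it may share reads with it, so both levels are uncertain.

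Of 7 penta-EF-hand proteins, the family of sorcin, 0 were called by limma and 1 had an unadjusted p under 0.05. That gene, GCA, the grancalcin gene, stood at 3.37 and 4.27 FPKM in CfzR, against 0.485 and 0.718 FPKM in WT (log2 fold change 1.59). Like GNAI1 and SEMA3D it had a WT mean under 1 FPKM and entered the fit only through its CfzR values. The family median was -0.13. Of 10 genes around the PEST-type phosphatases 0 were called by limma, 1 had an unadjusted p under 0.05 and the median was 0.25. PTPN18, a relative of PTPN12, stood at 26.7 and 28.6 FPKM in CfzR, against 48.6 and 38.5 FPKM in WT. PHTF1 and RSBN1, the relatives of PHTF2 and RSBN1L outside chromosome 7, had log2 fold changes of 0.01 and 0.06.

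The pattern of GNAI1 over the 4 libraries was closest, among genes on other chromosomes, to those of GAS2, ATRNL1, WASF1, LHFPL6 and SMAD6, by Euclidean distance of centred log2(FPKM + 1) values (0.25 to 0.44). WASF1, for example, stood at 6.49 and 6.06 FPKM in CfzR, against 0.472 and 0.507 FPKM in WT. Over so few libraries many genes share such a pattern.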

How the data were processed

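TRIzol extraction and an mRNA library kit were used, per the labels' protocols. Reads were handled with STAR and Cufflinks, per the submitters' processing notes. Which versions, genome build, annotation and strand setting were used is not given in the sources used here, and no header states them. FPKM values for 15201 Ensembl genes were deposited by the authors in a single table, with each library in its own column. That they are FPKM was inferred from Cufflinks being named, from the ID column's name and from the decimals. Columns carrying a short name for a control were taken as WT, the only other group. No shared step of 1 read was found, since the most frequent ratio between WT libraries held for 3.67% of the 300 lowest genes (within 1%), so depth is unknown.

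Symbols were matched for 13174 IDs and GENCODE 29 (GRCh38) positions for 14496. These positions, which are not the authors' own, placed the genes. Promoter windows came from RefSeq. The 13411 genes whose 4-library mean reached 1 FPKM were compared as log2(FPKM + 1) by limma 3.58.1 in R 4.3.3 with a mean-variance trend, Benjamini-Hochberg adjustment and a threshold of 0.05. The step was tested on simulated data with noise drawn separately for each gene and library. Those data lacked the length trend of the CfzR libraries, so nothing is read from that test. The length and GC correction removed spline trends (4 degrees of freedom) from each library, for 12896 genes (96.2%).

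The genes and lists were chosen with earlier results of these data known. The text names the 10 genes, the ends of the block, neighbours next to a named gene or with an absolute log2 fold change of at least 1, genes at the 10 Mb limit, relatives in the lists and the 5 genes closest in pattern. CDK6, SAMD9, ASNS, RPS3AP29, GCA, KRT8, KRT18, ENSG00000273623 and single plasma cell markers were named after their values were seen. Alternatives were other pseudocounts, filters, scalings, thresholds and distances, a replicate block and leaving out each library.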

Additional observations from a re-analysis of the deposited data

How the results depend on the processing

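With 2 libraries a group and unknown depth, small differences cannot be separated from library differences. Of the 10 genes, 9 had log2 fold changes above 0 under all alternatives that gave a value. SRI ranged from -0.09 with the length and GC correction to 0.19 under quantile normalization. The low genes GNAI1 and SEMA3D depended most on the pseudocount: with 0.1 they had 3.86 and 2.80, and with 5 they had 1.13 and 0.91. With a filter at 5 FPKM they were not tested, and the number of the 10 called was 0, as at an adjusted p of 0.01.

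Over all genes, limma called 33 higher and 14 lower. A filter at 5 FPKM gave 18 and 9, and an adjusted p of 0.01 gave 9 and 6. Leaving out 1 library gave 8 to 118 higher and 7 to 142 lower, and 0 to 2 of the 10 genes. Without CfzR replicate 1 or 2 the numbers called higher were 8 and 10, and without WT replicate 1 or 2 they were 118 and 97. Such fits assume that the lone library varies like the others. With a replicate block, 487 of the 13411 tested genes were called higher, 6 of the 10 genes among them, and 755 were called lower. The 10 genes were chosen on this contrast, so nothing is read from that count. Same-numbered libraries deviated together with a correlation of 0.252 across genes, but with 2 pairs they share only a number.

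Outside the block within 10 Mb, 2 genes on the side of the centromere had a log2 fold change of at least 1. On the other side there were 2, DBF4 and CDK6-AS1. All of these except DBF4 had a WT mean under 1 FPKM and entered the fit only through their CfzR values. On the side of the centromere the count was 1 with a pseudocount of 5, 0 with the filter at 5 FPKM, 1 within 5 Mb and 5 at a limit of 0.5. On the other side it was 4 with a pseudocount of 0.1, 0 with 5, 1 with the filter at 5 FPKM, 1 with the length and GC correction, 1 within 5 Mb, 12 at a limit of 0.5 and 1 to 3 with a library left out. The causes of these changes were not tested, apart from the smaller sets of genes that stricter filters and shorter distances leave.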
